A study of Homo sapiens with 18 samples.

Results

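The genes examined here encode 10 transcription factors of the ETS family that are expressed in blood cells: SPI1, SPIB, ETS1, ETS2, ETV6, ELF1, ELF2, ELF4, GABPA and ELK3. They are 10 of the 28 human ETS genes, chosen as family members expressed in blood, with earlier results of these data known. They were set beside all 19974 protein-coding genes with a GRCh38 position on chromosomes 1 to 22 or X. A peak was assigned to a gene if it touched the gene or its flanks of 10 kb on either side. The peaks were called to locate AML1-ETO, the fusion of RUNX1 (AML1) and RUNX1T1 (ETO) made by t(8;21), in Kasumi-1, a human leukaemia line with that translocation. All 18 libraries came from Kasumi-1 cells carrying a Flag tag on AML1-ETO, which were transduced, sorted as viable GFP+ cells after 3 days and profiled by CUT&RUN, a method in which an antibody directs a nuclease to its target and the released fragments are sequenced. The control and the miR-130a KD (knock-down) condition each had 3 libraries with an antibody to ETO, 3 with an antibody to Flag and 3 with mouse IgG. Both conditions share the tagged fusion and the transduction; the vector used for the control was not given in the sources used here, and all cells are of a single line. The question was whether knock-down of miR-130a, a microRNA (a short RNA that represses matching messenger RNAs), alters where the fusion sits.

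ETS factors bind DNA through a shared ETS domain that recognises a GGAA core. PU.1, the product of SPI1, directs myeloid and B-cell development, and its gene is controlled in blood cells by RUNX1 acting at an upstream regulatory element. RUNX and ETS motifs often lie near each other in blood enhancers, and AML1-ETO, which keeps the DNA-binding domain of RUNX1, is known to bind PU.1 and dampen its activity.

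The values are positions of called peaks. The single-antibody lists held 14264 (control anti-ETO), 22594 (miR-130a KD anti-ETO), 23162 (control anti-Flag) and 25961 (miR-130a KD anti-Flag) peaks. None gave a height, score or value per library. Each antibody and condition has 1 list, so the spread between the 3 libraries and the depth behind a call are unknown, no comparison of conditions could be tested, and all differences below describe these lists. Sites called by both antibodies in a condition are termed dual-antibody peaks, and the authors' shared, C-Unique and KD-Unique lists hold the dual-antibody peaks of both conditions, of control only and of knockdown only. Neither expression nor IgG peaks were analysed here, so whether these genes were active in the cells was not measured.

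A peak was found at 8 of the 10 genes in at least 1 list of a single antibody, and ETS1 and GABPA had none, as was the case for 41.6% of all protein-coding genes. The control anti-ETO list held a peak at 5 genes (SPI1, ETV6, ELF1, ELF2 and ELF4), beside 47.6% of all genes counted the same way. The miR-130a KD anti-ETO list held a peak at 8 genes (53.8% of all), adding SPIB, ETS2 and ELK3. It is a longer list, with 22594 peaks against 14264 in control anti-ETO. The control anti-Flag list held a peak at 7 genes (50.2% of all) and the miR-130a KD anti-Flag list at 6 (42.2% of all). ELK3 had a control anti-Flag peak and no knockdown one.

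The same 5 genes that had a control anti-ETO peak had a peak in each of the 4 single-antibody lists (37.3% of all genes) and in the shared list (35.1% of all). C-Unique peaks were found at 4 genes, ETV6, ELF1, ELF2 and ELF4 (16.9% of all), and at 2 of them (ETV6 and ELF4) with the wider 50% of each list. KD-Unique peaks were found at 3 genes, SPI1, SPIB and ELF2 (18.4% of all). This count was 1 under 3 other settings, with a different gene each time: SPI1 in the gene bodies alone, ELF2 with the wider 50% of each list, and SPIB with lists rebuilt from 4 single-antibody lists of equal length. Dual-antibody peaks were found at 5 genes in control (43.8% of all) and at 6 in knockdown (39.4% of all), with 5 genes in both (36.2% of all). SPIB was the only member with a dual-antibody peak in knockdown and none in control, a pattern held by 3.26% of all genes, and no member showed the opposite (7.66% of all). This pattern of SPIB rests on the flank used: within 50 kb it had 2 shared peaks, and the gene body alone held 0 peaks in every list. The member genes are long, with a median of 61.7 kb against 24.2 kb for all protein-coding genes, and a longer gene offers more room for a peak. The median number of peaks summed over the 4 lists was 6 for the members and 2 for all genes, and whether length accounts for this was not tested.

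**Figure D1:**
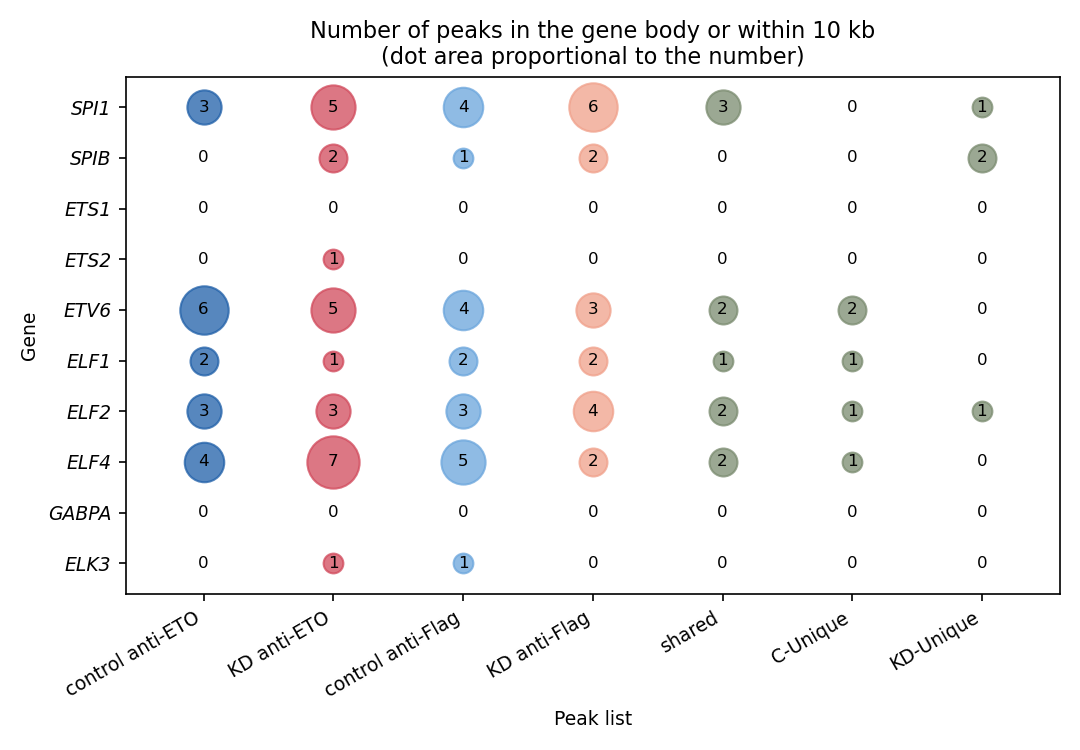
Number of peaks at each of the 10 genes (rows) in each list (columns), printed on dots whose area is proportional to the number. SPI1, ETV6 and ELF4 have 18 peaks each over the 4 single-antibody lists, whereas ETS1 and GABPA are at 0 in all 7 lists shown.

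**Figure D2:**
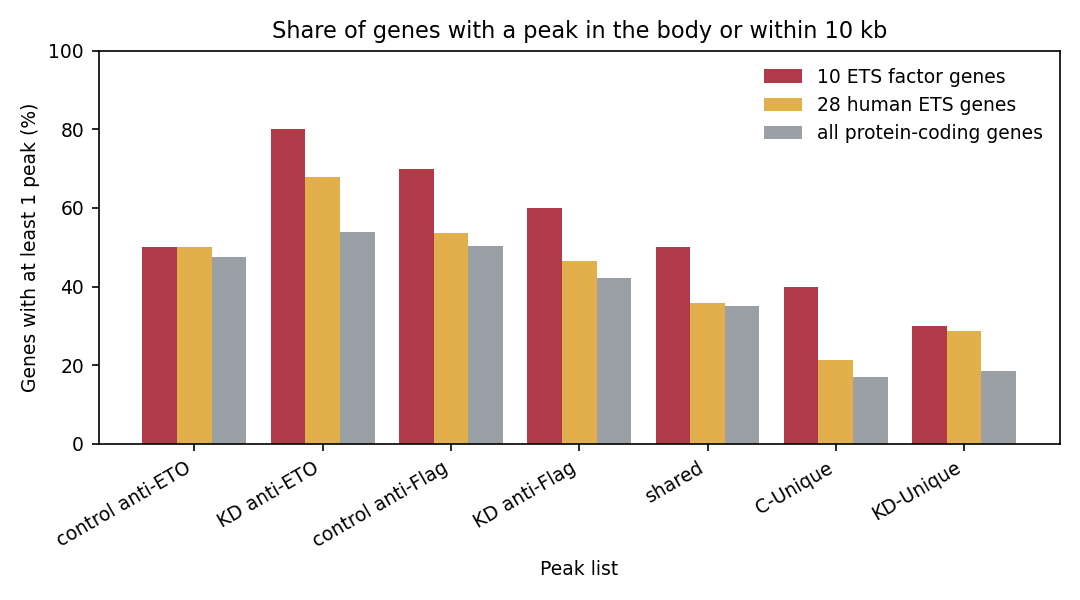
Percentage of genes with at least 1 assigned peak, by list, for the 10 genes, the 28 human ETS genes and all 19974 protein-coding genes. The bars of the 10 genes rest on 5, 8, 7, 6, 5, 4 and 3 genes from left to right.

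SPI1 lies on chromosome 11 (47354860 to 47378547) and had 3 control and 5 knockdown anti-ETO peaks, and 4 control and 6 knockdown anti-Flag peaks. Both antibodies thus gave 2 more peaks in knockdown. For anti-Flag, 2 of the 6 knockdown peaks lie within region 1 described below, where control anti-Flag had 1. More anti-ETO peaks in knockdown than in control were found at 5 of the 10 genes (32.4% of all genes) and more anti-Flag peaks at 3 (18.7% of all). SPI1 and SPIB had more peaks of both antibodies, a pattern held by 13.1% of all genes.

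Overlapping peaks of the 4 lists were merged into regions, numbered here from the lower to the higher coordinate, and SPI1 had 6. Its region 5 (chr11:47378350-47379001) spans the higher-coordinate end of the gene, which is the start of SPI1 because the gene is read from the minus strand. The peaks there measured 388 bp in control anti-ETO, 421 bp in control anti-Flag and 637 bp in both knockdown lists. All 4 lists called this region, and the knockdown peaks were the wider ones for both antibodies. Region 3 (chr11:47373865-47374476), centred 4.38 kb inside the gene from that end, was also called in all 4 lists, with 179 bp in control and 409 bp in knockdown for anti-ETO, and 384 and 556 bp for anti-Flag. Region 1 (chr11:47359000-47360356), 18.9 kb inside the gene, measured 618 bp in control and 1320 bp in knockdown for anti-ETO, and 700 and 499 bp for anti-Flag. Here the antibodies differed in direction, and the knockdown anti-Flag call was split into 2 peaks.

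The KD-Unique peak of SPI1 was region 2 (chr11:47361095-47361402), which begins after a gap of 738 bp from region 1. It had a peak of 308 bp in knockdown anti-ETO and of 300 bp in knockdown anti-Flag, and neither control list called it. None of the 4 lists cut to equal length by width called it either, and SPI1 then had a C-Unique interval in place of a KD-Unique one. Within 50 kb SPI1 had 3 C-Unique and 2 KD-Unique peaks. Region 4 (chr11:47376782-47377178) was called by knockdown anti-ETO alone. Region 6 (chr11:47388259-47388542), 9.85 kb beyond the start, was called by anti-Flag alone in both conditions and lies in the neighbouring RNA gene SLC39A13-AS1.

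**Figure D3:**
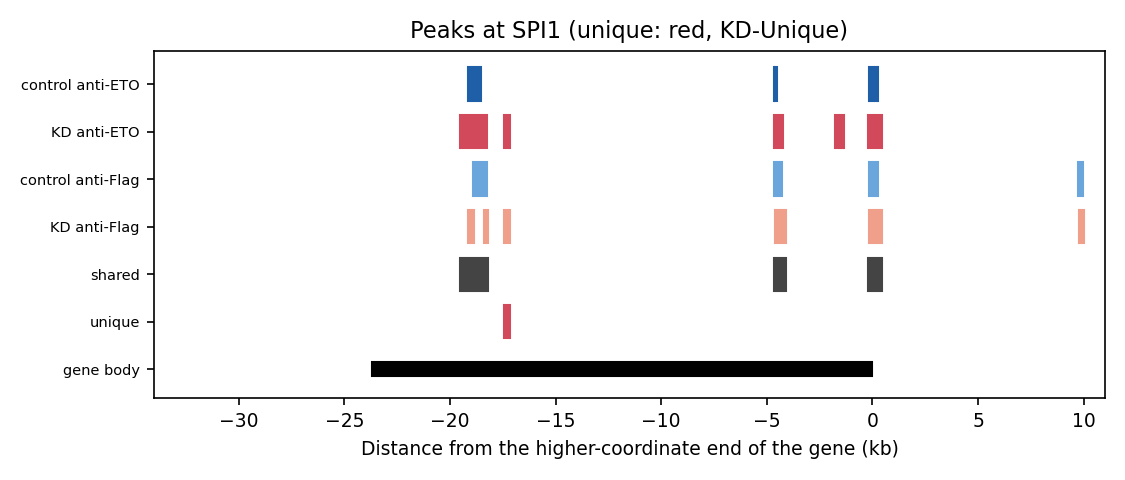
Peaks at SPI1 by list, against the distance in kb from the higher-coordinate end of the gene; bars are peaks to scale with a thin outline and the black bar is the gene body. Regions called in all 4 lists lie near 0, -4.38 and -18.9 kb, and the KD-Unique peak lies beside the last of these.

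The genes with the peak counts most like those of SPI1 over the 7 lists were MRPL53 and GARNL3, whose counts were the same in every list, and PRX, which differed by 1 peak in 1 list. Likeness was the summed absolute difference in peak number, with gene length to break ties. In all, 14 protein-coding genes were within that difference of SPI1.

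SPIB encodes the closest relative of PU.1, a factor of B cells and plasmacytoid dendritic cells. Its gene on chromosome 19 had 0 control and 2 knockdown anti-ETO peaks, and 1 control and 2 knockdown anti-Flag peaks, all in the flanks. Region 1 (chr19:50415281-50415551), 3.52 kb before the listed start, had 185 bp in knockdown anti-ETO and 246 bp in knockdown anti-Flag, with no control call, and lies in the neighbouring gene POLD1. Region 2 (chr19:50431563-50431977), just past the far end of SPIB, had 376 bp in control anti-Flag, 413 bp in knockdown anti-ETO and 415 bp in knockdown anti-Flag. Both regions were KD-Unique. The first had no call by either antibody in control, and with lists of equal length no list called it. The second lacked only the control anti-ETO call, as it did with lists of equal length.

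ELF1, ELF2 and ELF4 form the ELF branch of the family. ELF1 is an activator in T cells and blood progenitors, and ELF4 influences the cycling of blood stem cells and supports natural killer cells. ELF2 is a broadly expressed relative of both.

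ELF2 on chromosome 4 held the widest peaks of the 10 genes. Region 4 (chr4:139175619-139179051) covers the outer start of the gene, with 2818 bp in control anti-ETO, 3292 bp in knockdown anti-ETO, 3428 bp in control anti-Flag and 3269 bp in knockdown anti-Flag. Region 2 (chr4:139083192-139085716) covers an internal start, with 1824, 2517, 2307 and 2262 bp in the same order. Both starts were thus called in all 4 lists, and the control anti-ETO peak was the narrowest at each. Region 4 also spans the start of the RNA gene LOC105379412, so the calls there cannot be assigned to ELF2 alone.

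The unique peaks of ELF2 lay outside these broad regions. The C-Unique peak (chr4:139082616-139082969) was separated from region 2 by a gap of 222 bp and had 262 bp in control anti-ETO and 289 bp in control anti-Flag, with no knockdown call. The KD-Unique peak (chr4:139184081-139184609), 7.13 kb before the outer start, had 376 bp in knockdown anti-ETO and 528 bp in knockdown anti-Flag, with no control call. With flanks of 10 kb, ELF2 was the only member with both kinds of unique peak (4.46% of all genes). Within 50 kb SPI1 had both kinds too. With lists of equal length, only control anti-ETO called the C-Unique peak of ELF2, and only knockdown anti-Flag called its KD-Unique peak.

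ELF1 on chromosome 13 had 2 control and 1 knockdown anti-ETO peaks and 2 anti-Flag peaks in each condition. The equal anti-Flag counts are not the same sites, because both knockdown anti-Flag peaks lie within region 2, where control anti-Flag had 1. Region 2 (chr13:41060044-41062836) spans its outer start, with 1735 bp in control and 2793 bp in knockdown for anti-ETO, and 1874 and 1617 bp for anti-Flag. It also covers the start of WBP4, which is transcribed away from ELF1. Region 1 (chr13:41005067-41005440), 56.1 kb inside the gene, was C-Unique, with 187 bp in control anti-ETO and 352 bp in control anti-Flag and no knockdown call. With lists of equal length, only control anti-ETO called it. The 2 internal starts of ELF1 in the RefSeq table had no peak.

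ELF4 on chromosome X had 4 control and 7 knockdown anti-ETO peaks but 5 control and 2 knockdown anti-Flag peaks. The antibodies therefore differed in direction at this gene. Region 4 (chrX:130086318-130087634) covers an internal start and was called in all 4 lists, with 504 bp in control and 1317 bp in knockdown for anti-ETO, and 675 and 614 bp for anti-Flag. Region 2 (chrX:130082429-130083063), 4.19 kb further into the gene, was called in all 4 lists too, with 530 and 615 bp for anti-ETO and 316 and 219 bp for anti-Flag. Near the outer starts, region 7 (chrX:130110558-130111286) was called by anti-ETO alone, with 552 bp in control and 554 bp over 2 peaks in knockdown, and it overlaps RAB33A. The C-Unique peak (chrX:130120637-130121125), 9.02 kb before the outermost start and also in RAB33A, had 481 bp in control and 457 bp in knockdown for anti-ETO, and 447 bp in control anti-Flag. Only the knockdown anti-Flag call was missing there. Single-list regions of ELF4 were 2 of knockdown anti-ETO and 2 of control anti-Flag.

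Sequences upstream of starts under the called regions are shown because AML1-ETO binds through the RUNX1 domain and these genes encode ETS factors. Each is the 250 bases before a RefSeq start (GRCh38.p14), written 5′ to 3′ on the strand of the gene. Capitals mark matches to the RUNX motif TGTGGT or TGCGGT and to the ETS motifs CGGAAG or AGGAAG on either strand, so a match on the opposite strand appears as its reverse complement. No RUNX match overlaps an ETS match in the sequences shown.
ELF4 internal start, chrX:130086934-130087183, minus strand: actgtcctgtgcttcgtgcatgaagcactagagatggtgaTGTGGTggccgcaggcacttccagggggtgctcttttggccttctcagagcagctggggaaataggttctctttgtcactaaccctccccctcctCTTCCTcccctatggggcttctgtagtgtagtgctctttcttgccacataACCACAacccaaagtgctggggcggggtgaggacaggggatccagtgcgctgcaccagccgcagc
ELF2 outer start, chr4:139177219-139177468, minus strand: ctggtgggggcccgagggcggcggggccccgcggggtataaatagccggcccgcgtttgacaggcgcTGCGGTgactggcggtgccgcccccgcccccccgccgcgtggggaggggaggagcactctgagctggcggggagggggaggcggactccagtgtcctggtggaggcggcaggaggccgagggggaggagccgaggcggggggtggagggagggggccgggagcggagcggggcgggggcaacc
ELF2 internal start, chr4:139084225-139084474, minus strand: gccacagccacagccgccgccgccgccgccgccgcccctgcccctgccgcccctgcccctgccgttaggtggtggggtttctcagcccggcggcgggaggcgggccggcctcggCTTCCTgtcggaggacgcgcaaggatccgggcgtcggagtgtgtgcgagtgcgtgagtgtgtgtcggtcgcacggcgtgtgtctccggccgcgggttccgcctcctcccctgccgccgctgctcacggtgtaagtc
ELF1 outer start, chr13:41061387-41061636, minus strand: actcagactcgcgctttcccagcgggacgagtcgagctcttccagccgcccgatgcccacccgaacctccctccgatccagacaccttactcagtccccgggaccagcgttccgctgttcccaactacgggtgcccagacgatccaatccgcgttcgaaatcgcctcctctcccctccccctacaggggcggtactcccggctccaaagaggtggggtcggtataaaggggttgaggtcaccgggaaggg
The ELF4 sequence holds 2 RUNX matches, at -210 and -65 from the start, with an ETS match at -115 between them. The outer ELF2 sequence holds 1 RUNX match at -183, the internal one holds 1 ETS match at -136, and the ELF1 sequence holds neither. All 4 lie under regions called in all 4 lists. The called regions reach beyond these sequences, and the rest of each region was not searched for the motifs.

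The RefSeq table held 15 starts for 8 of the members, with entries for neither SPI1 nor ETS1. Counting from 250 bases before to 50 bases after a start, 4 of the 15 windows held a RUNX match, beside 19.6% of all 35116 promoters in the table, and 7 held an ETS match, beside 46.9%. A called region overlapped 6 of the 15 windows, of which 3 held a RUNX match and 2 an ETS match. The RUNX match in the outer ETS2 window lies before the called peak and not under it. The share of all promoters overlapped by a called region was not counted. Of the 9 windows without a call, 1 held a RUNX match and 5 an ETS match. These are counts of letters in few windows, several of them from the same gene.

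ETV6 encodes a repressor that blood stem cells need in the bone marrow, and its gene is joined to RUNX1 by another leukaemia translocation. The gene is the longest of the 10, with 246 kb on chromosome 12, and it had 6 control and 5 knockdown anti-ETO peaks and 4 control and 3 knockdown anti-Flag peaks. Fewer anti-ETO peaks in knockdown were found at ETV6 and ELF1 only among the members (5.05% of all genes), and fewer anti-Flag peaks at ETV6, ELF4 and ELK3 (21.8% of all genes). The control anti-ETO count of ETV6 includes 2 peaks within region 5 described below, where knockdown anti-ETO had 1. Its lower knockdown count is therefore not a count of regions lost.

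ETV6 had 7 regions. Region 1 (chr12:11648505-11649409), which ends 265 bp before the listed start, was called in control anti-ETO with 905 bp, in knockdown anti-ETO with 799 bp and in control anti-Flag with 808 bp. Region 6 (chr12:11773483-11774316), 124 kb inside the gene, had 586 bp in control and 179 bp in knockdown for anti-ETO, and 834 bp in control anti-Flag. Both were C-Unique, and at both only the knockdown anti-Flag call was missing. Regions 4 (chr12:11719303-11720425) and 5 (chr12:11765458-11766622) were called in all 4 lists. Anti-Flag peaks there measured 1123 and 989 bp in control and 186 and 312 bp in knockdown. Anti-ETO peaks measured 448 and 575 bp in control, the latter over 2 peaks, and 176 and 728 bp in knockdown. The anti-Flag calls of ETV6 were therefore narrower or missing in knockdown at all 4 regions where control had one. The remaining regions were short and each stood in 1 list: region 2 in knockdown anti-ETO, region 3 in control anti-ETO and region 7 in knockdown anti-Flag.

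**Figure D4:**
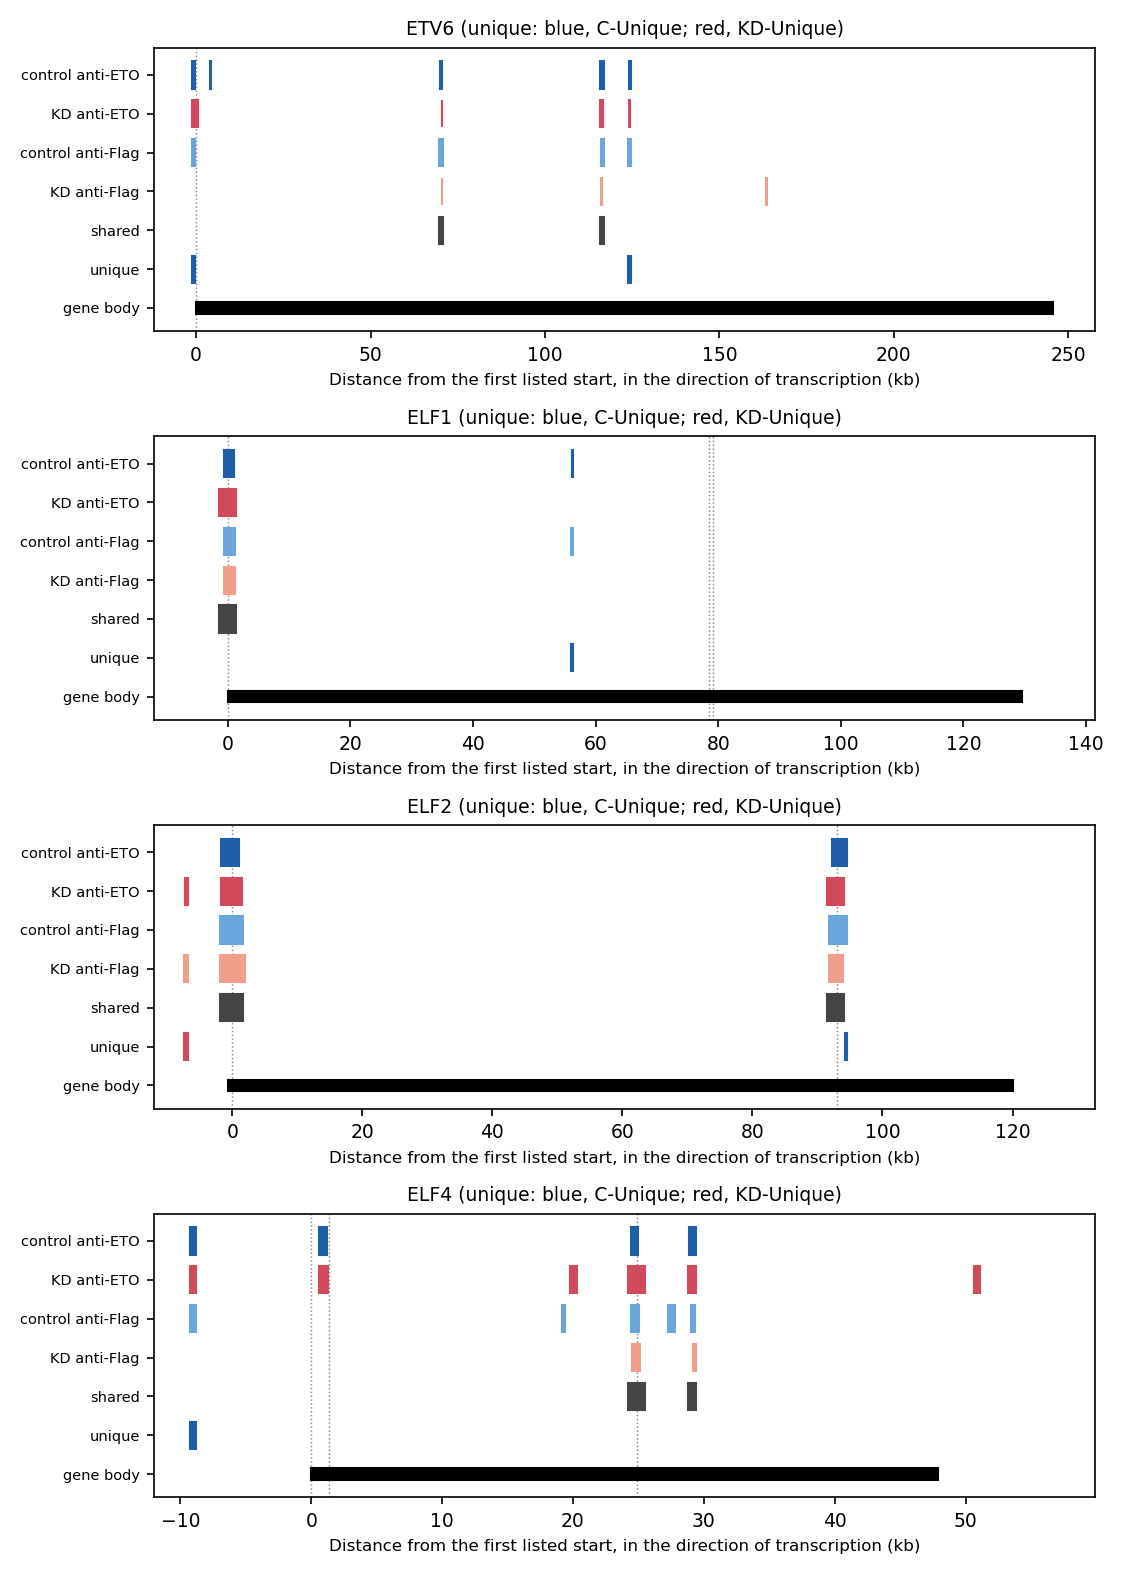
Peaks at ETV6, ELF1, ELF2 and ELF4 by list, against the distance in kb from the first listed start in the direction of transcription; dotted lines are RefSeq starts, black bars gene bodies, and peaks are to scale with a thin outline. Calls in all 4 lists lie over the outer start of ELF1, both starts of ELF2 and an internal start of ELF4. The C-Unique peak before the start of ETV6 has no knockdown anti-Flag call.

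The founding members ETS1, a factor of lymphoid cells, and ETS2, which responds to growth signals, had few or no calls. ETS2 on chromosome 21 had 1 peak, in knockdown anti-ETO (chr21:38805046-38805565, 520 bp), over its outer start, and no peak in the other 3 lists. ETS1 (chromosome 11, 128458765 to 128587558) had no peak, although the gene covers 129 kb. Its nearest peaks were 109 kb away in control anti-ETO, 108 kb in knockdown anti-ETO and in control anti-Flag, all inside the adjacent ETS gene FLI1, and 692 kb away in knockdown anti-Flag.

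GABPA encodes the DNA-binding subunit of a factor used by many housekeeping promoters. The gene (chromosome 21, 25734972 to 25772460) had no peak, and the nearest ones were 1071 kb away in control anti-ETO and 1756 to 1757 kb away in the other 3 lists. ELK3, a partner of serum response factor that represses until it is phosphorylated, had 1 control anti-Flag peak (chr12:96194484-96194669, 186 bp) near its outer start and 1 knockdown anti-ETO peak (chr12:96237533-96237849, 317 bp). No site of ELK3 was called by both antibodies.

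The upstream sequences of ETS2 and GABPA are given as the start called by a single list and the start with no call.
ETS2 outer start, chr21:38804933-38805182, plus strand: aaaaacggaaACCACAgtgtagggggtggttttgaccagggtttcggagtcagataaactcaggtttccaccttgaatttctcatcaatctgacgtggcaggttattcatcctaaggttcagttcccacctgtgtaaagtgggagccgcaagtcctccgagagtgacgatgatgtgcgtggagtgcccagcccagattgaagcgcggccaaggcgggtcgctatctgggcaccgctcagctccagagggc
GABPA start, chr21:25734722-25734971, plus strand: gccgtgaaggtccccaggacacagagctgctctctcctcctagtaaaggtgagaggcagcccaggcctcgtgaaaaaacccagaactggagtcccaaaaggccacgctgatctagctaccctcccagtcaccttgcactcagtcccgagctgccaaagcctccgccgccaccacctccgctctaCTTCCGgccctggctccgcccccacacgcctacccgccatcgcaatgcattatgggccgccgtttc
The ETS2 sequence holds a RUNX match at -240, which lies before the called peak, and the GABPA sequence holds an ETS match at -66.

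Over all members there were 33 merged regions, of 35622 in the series. Of these, 10 were called in all 4 lists (24.8% of all regions), 4 in 3 lists (14.8%), 7 in 2 lists (16.2%) and 12 in 1 list (44.3%). The regions called in all 4 lists were wide, with a median of 1241 bp (1056 bp over the whole series), against 303 bp for those in 1 list (280 bp). A merged region spans all of its peaks, so regions in all 4 lists are wider in part by construction. Knockdown anti-ETO alone called 6 of the 33 regions (10.3% of all) and knockdown anti-Flag alone 2 (22.3% of all). Control anti-Flag alone called 3 (10.2% of all) and control anti-ETO alone 1 (1.40% of all). Of the 10 regions in all 4 lists, 4 covered a listed start of their gene and a further region covered the start of SPI1. How often such regions cover a start over the whole series was not counted.

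In these 10 regions, anti-ETO peaks covered more bases in knockdown than in control in 9, beside 81.3% of all 8835 such regions. Anti-Flag peaks covered fewer bases in knockdown in 8, beside 69.5% of all, and more in 2, beside 30.2%. ETV6 region 4 was the exception for anti-ETO, and SPI1 regions 3 and 5 were the exceptions for anti-Flag. For anti-ETO the median covered length was 552.5 bp (control) and 1022.5 bp (knockdown), and for anti-Flag 844.5 and 585 bp. Over all such regions the medians were 643 and 899 bp for anti-ETO and 800 and 629 bp for anti-Flag, so the members differed in the directions of the whole series.

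**Figure D5:**
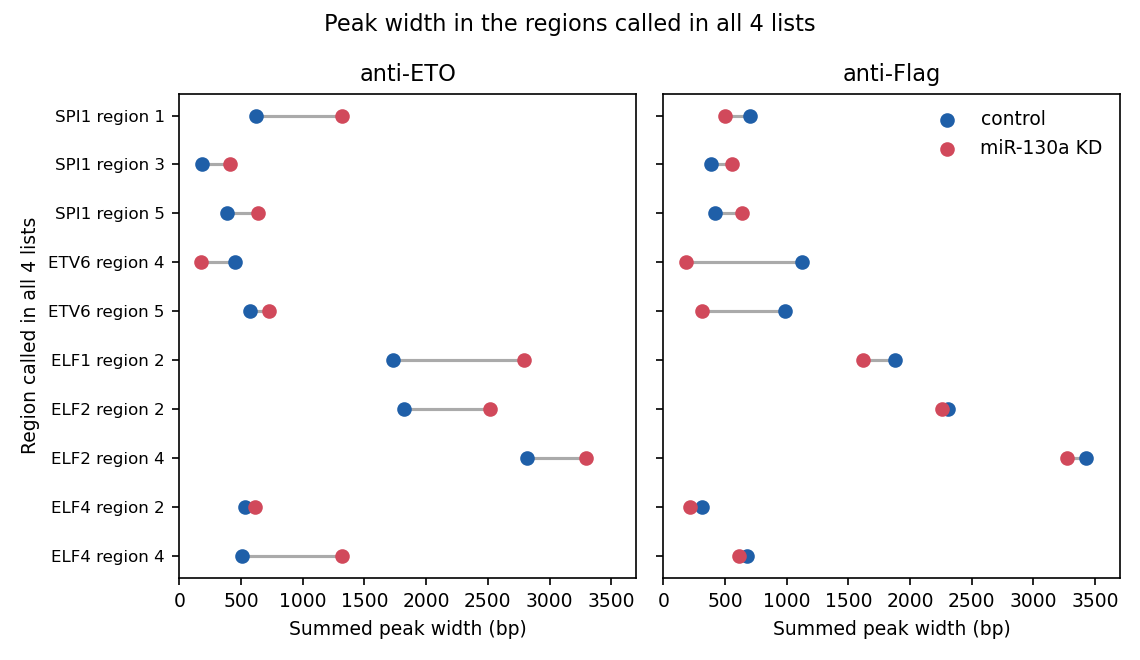
Summed peak width in bp for the 10 regions called in all 4 lists, in control (blue) and miR-130a KD (red), with anti-ETO on the left and anti-Flag on the right. Knockdown lies to the right of control in 9 regions for anti-ETO and in 2 for anti-Flag.

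The 9 unique peaks of the members split by what the other condition still showed. Of the 5 C-Unique peaks, 3 had an anti-ETO call in knockdown (76.7% of all C-Unique peaks), none had an anti-Flag call (5.17%) and 2 had neither (20.2%). The 3 were those of ETV6 and ELF4, and the 2 were those of ELF1 and ELF2. Among the 4 KD-Unique peaks, control cells showed an anti-Flag call at 1 (56.1% of the whole KD-Unique list), an anti-ETO call at none (6.82%) and neither at 3 (38.1%). The 3 were at SPI1, SPIB and ELF2, and the remaining one was the peak past the end of SPIB.

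The full human ETS family has 28 genes, 10 of them the members above. A peak was found at 14 in the control anti-ETO list (47.6% of all genes), 19 in the knockdown anti-ETO list (53.8%), 15 in the control anti-Flag list (50.2%) and 13 in the knockdown anti-Flag list (42.2%). The shared list held a peak at 10 (35.1% of all), the C-Unique list at 6 (16.9%) and the KD-Unique list at 8 (18.4%). The family counts of the control anti-ETO, both anti-Flag and the shared lists thus lay near the share of all genes. Among the 18 further genes, C-Unique peaks were found at FLI1 and ETV2, and KD-Unique peaks at ERG, ERF, ETV2, ETV7 and ELK4. ERG, a stem cell factor and oncogene, had 0 control and 4 knockdown anti-ETO peaks, and 0 control and 1 knockdown anti-Flag peaks. FLI1, its closest relative and a regulator of megakaryocytes, had 1 anti-ETO peak in each condition, 1 control anti-Flag peak and no knockdown one. ERG, ETV7 and SPIB had a dual-antibody peak in knockdown only (3.26% of all genes) and FLI1 in control only (7.66%). No peak in any of the 4 lists was found for ETV3L, ELF3, ELF5, EHF and SPIC besides ETS1 and GABPA.

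Known myeloid target genes of PU.1 were counted as the next step of the pathway. Of 16 targets, 12 had a peak in the control anti-ETO list (47.6% of all genes), 12 in the knockdown anti-ETO list (53.8%), 13 in the control anti-Flag list (50.2%) and 11 in the knockdown anti-Flag list (42.2%). A shared peak was found at 9 (35.1% of all), a C-Unique peak at 6 (16.9%) and a KD-Unique peak at 5 (18.4%). C-Unique peaks stood at CSF2RA and CSF3R, which encode growth factor receptors, at IRF8, a partner of PU.1, and at ITGAM, ELANE and FCGR1A. KD-Unique peaks stood at ITGB2, NCF1, ITGAM, ELANE and FCGR1A. CSF2RA and CSF3R had a dual-antibody peak in control and none in knockdown (7.66% of all genes), and no target showed the opposite (3.26%), which is also the rarer pattern over all genes. TLR4 and BTK had no peak in any of the 4 lists.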

How the data were processed

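The 18 CUT&RUN libraries were put in 6 groups of 3 from the sample titles. The 9 deposited files are peak lists with chromosome, start and end. The submitters' processing notes name fastp 0.19.5, Bowtie2 2.3.5, MACS2 2.2.5, HOMER 4.8 and the builds hg38 and sacCer3, with no role or order. The peak threshold, the use of IgG and the pooling of libraries are not given in the sources used here, and each could change which peaks are listed. Per the labels, about 40 M reads were planned per library, and the depth reached is unknown.

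The positions were used as the authors deposited them, with starts counted from 1. Genes, promoters and starts came from RefSeq tables of GRCh38.p14, which matches the hg38 of the notes. All genes of the 3 lists matched by symbol. A peak was assigned to a gene on an overlap of at least 1 bp with the body or 10 kb of flank, so it can belong to several genes. The tools were pandas 2.3.3 and numpy 2.4.6 under Python 3.11.15, and matplotlib 3.10.9. bedtools 2.31.1 gave the same number for all 90 gene and list counts. The functions gave the planted answer in 9 of 9 checks on simulated lists of 2000 intervals.

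All 10 members are named. Of the other lists, genes with a unique peak or with no peak are named, and ERG and FLI1 were given in full after their values were seen. The members and lists were chosen with earlier results of these data known. No test was run, because no file gives a value per library. Alternatives were other flanks and overlap rules, the wider 50% of each list and lists of equal length.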

Additional observations from a re-analysis of the deposited data

How the results depend on the processing

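The numbers of members with a peak in the 4 single-antibody lists and in the shared list stayed within 1.5 times of those reported under all settings run, which were no flank, 5 kb, 50 kb, peak centres, an overlap of 100 bp, the wider 50% of each list and 4 lists of equal length. The unique lists depended on the setting. With the wider 50% of each list, C-Unique peaks were found at 2 genes (ETV6 and ELF4) and KD-Unique peaks at 1 (ELF2). KD-Unique peaks were found at 1 gene in the gene bodies alone (SPI1). They were found at 1 gene (SPIB) when the 3 lists were rebuilt from 4 lists shortened to 14264 peaks by width, where SPI1 instead had a C-Unique interval and none of the shortened lists called its KD-Unique peak. The merged regions, whose alternatives were chosen after seeing the data, numbered 51 within 50 kb and 20 with the wider 50%, and those called in all 4 lists numbered 4 with the wider 50% and 6 with lists of equal length. Among the peak counts of single genes, 44 of 280 alternative values differed by more than 1.5 times. No paired analysis was possible because the lists carry no replicate, and for the same reason no library could be left out. Widths are the only ranking the lists allow, and the depth behind a call is unknown.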

Other observations

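Beyond the 10 kb window, SPI1 had 12 further merged regions between 10 and 50 kb, all on the side of its start, and 3 of them were called in all 4 lists. The nearest of these (chr11:47394094-47396016, 1923 bp) begins 15.5 kb before the start, inside SLC39A13-AS1. The known upstream regulatory element of SPI1 lies on this side of the gene, and whether the region is that element was not tested. Beside it, a region (chr11:47393438-47393938) was called in control by both antibodies and in knockdown by anti-Flag alone. A region 22.0 kb before the start (chr11:47400550-47402070) was called by both antibodies in knockdown and by anti-Flag alone in control. The other regions called in all 4 lists overlap SLC39A13 and PSMC3.

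SPIB had 4 further regions between 10 and 50 kb, 2 of them called in all 4 lists and lying in NR1H2 and POLD1, and ELF2 had 2, neither called in all 4 lists. The other members had none.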
